A study of Mus musculus with 8 samples.

Results

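YTHDF3-bound regions in exons of non-coding RNAs were described in mouse embryonic fibroblasts (MEFs), in peaks of YTHDF3 RIP-seq, an assay in which RNA bound to a protein is immunoprecipitated (IP) with an antibody and sequenced beside an input library. They are all peaks whose deposited HOMER annotation begins with "non-coding", which HOMER gives to an exon of a transcript without an open reading frame, and they were grouped by the gene name deposited with each peak. Of 87940 deposited peaks, 1734 carried this annotation, and 1713 of 87096 remained after peaks below 2-fold of the input or with a p of 0.0001 or more were left out. MEFs came from wild-type C57BL/6 embryos at day 13.5 post-coitum and were used at passage 5 to 6. Endogenous YTHDF3 was precipitated, with no transgene or deletion in any group, and the labels give the sequenced molecule as poly(A) RNA. Normal MEFs were untreated. Starved MEFs were kept for 2 h in nutrient-deprived medium, a balanced salt solution. Each condition had 2 replicates, so that there were 4 lists of peaks, each with an IP and an input. The labels do not say that replicates were separate cultures, and the p-values below then measure the spread between these samples.

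YTHDF3 is a cytoplasmic reader protein that binds RNA carrying N6-methyladenosine (m6A), a methylated base laid down mainly in GGAC and related motifs, and it takes part in the translation and decay of its target RNAs. Long non-coding RNAs (lncRNAs) are spliced and polyadenylated much like mRNAs but have no long reading frame, and many of them carry m6A. Pseudogenes are copies of genes that have lost their coding function, some of which are still transcribed. A protein-coding gene can also give non-coding transcripts, which share most exons with its mRNA, and reads from such an exon cannot be told apart from mRNA reads.

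The sequences shown lie in an exon of a lncRNA or pseudogene and in no exon of a protein-coding transcript. They do not represent most regions, since 139 of 162 regions called in all 4 lists (85.8%) shared bases with an exon of a protein-coding transcript. For 7 such windows at the centre of regions called in all 4 lists, 200 bases are shown on the strand of the transcript, from mm10, with GGAC in capitals. The first 4 are in the lncRNAs Peg13 (chr15:72807881-72808080, minus strand, within the protein-coding gene Trappc9), Stk35os1 (chr2:129801116-129801315, minus strand, within the span of Stk35 on the other strand), Tug1 (chr11:3641406-3641605, minus strand) and D030025P21Rik (chr12:84877311-84877510, plus strand). The others are in the pseudogenes Hmga2-ps1 (chr1:176835371-176835570, minus strand, within the span of Sdccag8 on the other strand) and Zfp862-ps (chr6:48512036-48512235 and chr6:48529301-48529500, plus strand).
Peg13: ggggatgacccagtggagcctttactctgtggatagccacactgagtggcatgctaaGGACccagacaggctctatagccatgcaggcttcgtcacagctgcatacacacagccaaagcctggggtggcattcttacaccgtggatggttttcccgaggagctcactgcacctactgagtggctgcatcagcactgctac
Stk35os1: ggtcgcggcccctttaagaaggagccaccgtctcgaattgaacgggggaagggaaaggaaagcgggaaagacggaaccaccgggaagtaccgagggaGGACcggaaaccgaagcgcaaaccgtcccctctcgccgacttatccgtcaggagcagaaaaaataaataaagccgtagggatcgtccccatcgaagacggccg
Tug1: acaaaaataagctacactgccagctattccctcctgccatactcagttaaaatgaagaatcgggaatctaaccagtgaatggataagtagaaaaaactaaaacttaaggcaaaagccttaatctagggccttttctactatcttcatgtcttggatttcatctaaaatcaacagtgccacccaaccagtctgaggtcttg
D030025P21Rik: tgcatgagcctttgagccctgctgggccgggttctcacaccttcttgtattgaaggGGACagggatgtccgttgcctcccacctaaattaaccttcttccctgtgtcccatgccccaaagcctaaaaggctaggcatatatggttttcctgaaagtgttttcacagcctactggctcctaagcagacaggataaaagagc
Hmga2-ps1: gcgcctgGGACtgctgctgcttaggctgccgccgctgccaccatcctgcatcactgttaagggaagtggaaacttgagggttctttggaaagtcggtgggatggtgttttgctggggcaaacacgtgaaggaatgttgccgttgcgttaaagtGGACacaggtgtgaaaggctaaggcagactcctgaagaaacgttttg
Zfp862-ps, 5′ window: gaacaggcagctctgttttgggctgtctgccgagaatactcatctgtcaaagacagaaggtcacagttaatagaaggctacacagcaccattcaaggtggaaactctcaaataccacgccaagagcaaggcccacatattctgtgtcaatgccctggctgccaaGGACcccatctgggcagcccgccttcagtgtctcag
Zfp862-ps, 3′ window: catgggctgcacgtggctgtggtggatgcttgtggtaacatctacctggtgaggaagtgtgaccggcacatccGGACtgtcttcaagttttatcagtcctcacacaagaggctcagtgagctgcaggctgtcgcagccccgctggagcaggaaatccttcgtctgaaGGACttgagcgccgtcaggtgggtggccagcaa

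Windows of A730017L22Rik (chr2:130873506-130873705) and of a region of Zfp862-ps farther 3′ (chr6:48533181-48533380) met the same rule but are not shown. They held 0 and 1 copies of GGAC. The windows shown held 0 to 2 copies of GGAC, with 0 in that of Tug1 and 2 in that of Hmga2-ps1 and in the 3′ window of Zfp862-ps. In the whole regions around them, Peg13 held 13 copies in 4860 bases, Stk35os1 12 in 2030, Tug1 10 in 3530 and Hmga2-ps1 9 in 1540. GGAC was searched on the strand of the transcript alone, and a match marks letters and not a methylated site. Over the non-coding regions called in all 4 lists and with a known strand, 90 of 156 (57.7%) had GGAC in the 200 bases at their centre. Over all regions called in all 4 lists the share was 3919 of 6375 (61.5%). By class, GGAC stood in the window of 14 of 29 lncRNA regions (48.3%), of 67 of 118 regions in non-coding transcripts of protein-coding genes (56.8%) and of 9 of 9 pseudogene regions. Per kb of region the density was 4.25 for the non-coding regions and 4.38 for all regions, with a median GC content of 52.2% and 52.3%, and the lncRNA regions alone had 4.21 per kb at 55.6% GC.

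In the lists of normal replicates 1 and 2 and starved replicates 1 and 2, 363, 400, 477 and 473 peaks were in non-coding exons. They were 2.09%, 1.82%, 2.07% and 1.91% of all peaks, and the share did not separate the conditions. An exact permutation test of 2 against 2 lists cannot go below p = 0.33. The peaks covered 195.0, 243.2, 284.5 and 309.6 kb and held 99431, 139505, 230730 and 239070 IP reads. These were 1.13%, 0.969%, 1.47% and 1.24% of the IP reads in peaks, higher in both starved lists than in both normal lists. Single deep genes weigh on these sums, such as Brd2 with 43234 IP reads over 3 lists, and the difference was not tested. The lists count reads inside peaks alone, so the depth of the libraries is unknown here, and they hold 8818619 to 19271667 IP reads inside peaks of all annotations. The median log2 IP/input fold of the peaks was 1.81, 1.67, 1.67 and 1.66, against 1.64, 1.61, 1.57 and 1.64 over all peaks. In each list the non-coding peaks were above the median of all peaks. Where a peak had 3 input reads or fewer, its fold was taken over 3 reads as a lower bound, which concerned 24.2%, 13.8%, 30.6% and 16.7% of the non-coding peaks and 16.4%, 14.0%, 25.4% and 14.7% of all peaks. As a check of the cells, 4 to 6 of 10 fibroblast markers had a peak in each list, Col3a1, Pdgfrb and Fbn1 in all of them. Of the markers of other cell types, 0 of 4 immune and 0 of 4 neural genes had a peak in a list, Krt19 (epithelial) had 1 with 18 IP reads in normal replicate 1, and Kdr (endothelial) had 29 to 89 IP reads.

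Merging overlapping peaks gave 830 non-coding regions of 39979, and by the annotated transcript they were of several kinds. Non-coding transcripts of protein-coding genes made up 581 regions from 230 genes. Only 196 regions lay in lncRNAs, from 121 genes, 37 lay in pseudogenes from 14 genes, and 16 lay in transcripts not in the annotation used. Of the 830 regions, 652 (78.6%) shared bases with an exon of a protein-coding transcript, 415 of them with coding sequence. For the lncRNA regions alone, 123 of 196 touched no exon of a protein-coding transcript, as did 36 of 37 pseudogene regions and 19 of 581 of the rest. The deposited gene name, which is that of the nearest transcription start, was the gene of the annotated exon in 471 of 830 regions (56.7%). The peaks named for Snora3, a small nucleolar RNA, lay in exons of the protein-coding gene Denn2b, and those named for Ltbp2, a matrix protein, lay in the lncRNA D030025P21Rik. Where the names differ, the gene of the exon is used in what follows and the deposited name stands in parentheses.

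By length along the spliced transcript, peaks lay more often in its 5′ part, while by exon the last was the most frequent. The peak with the most IP reads of a region lay in the last of several exons in 363 of 830 regions (43.7%). It lay in a middle exon in 290 (34.9%) and in the first of several in 103 (12.4%). No such shares are given here for all regions. Of 814 regions with a position on the spliced transcript (0 at its 5′ end, 1 at its 3′ end), 354 had the centre of their peak below 0.333, 257 between 0.333 and 0.667 and 203 above. The median position was 0.362 for lncRNAs, 0.424 for non-coding transcripts of protein-coding genes and 0.379 for pseudogenes. These are medians over regions, some of which share a transcript. HOMER names the starts and ends of transcripts first, and peaks there can stand under other annotations.

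**Figure D1:**
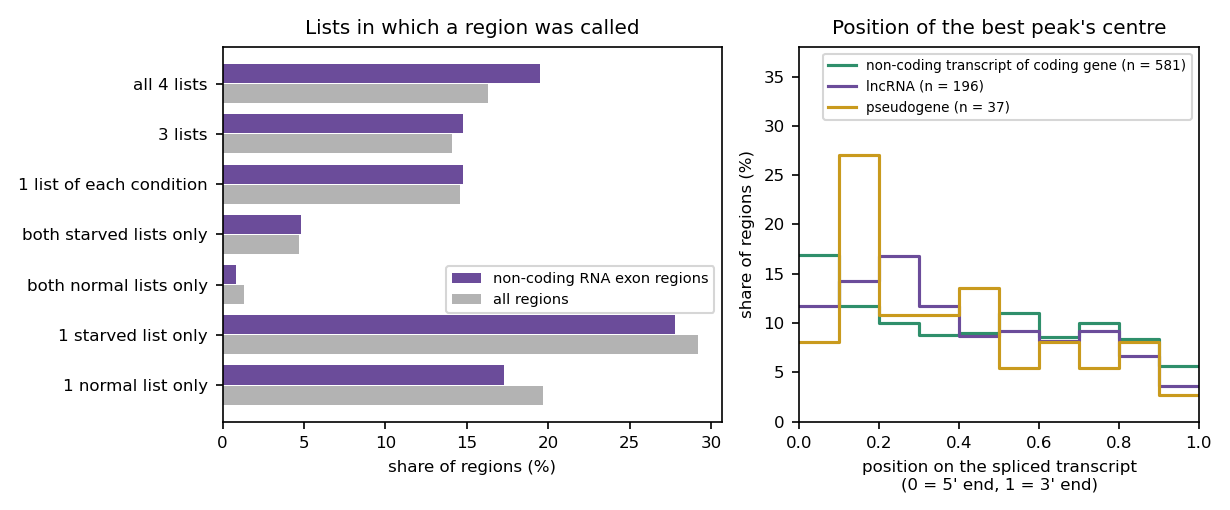
Left, bars give the share (%) of the 830 non-coding regions and of all 39979 regions by the lists in which they were called; right, lines give the share (%) of regions by the position of their peak on the spliced transcript, from 0 at the 5′ end to 1 at the 3′ end, in 3 classes. The shares by list were close for both sets (19.5% and 16.3% in all 4 lists), and in each class the bin at the 3′ end held the fewest regions.

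Of the 830 regions, 162 (19.5%) were called in all 4 lists, 123 (14.8%) in 3 lists, 123 (14.8%) in 1 list of each condition and 375 (45.2%) in 1 list. Over all regions these shares were 16.3%, 14.1%, 14.6% and 49.0%. Of the regions in 1 list, 231 (27.8% of 830) were in a starved and 144 (17.3%) in a normal list, beside 29.2% and 19.7% of all regions. Regions of lncRNAs were called in all 4 lists in 29 of 196 cases (14.8%), those in non-coding transcripts of protein-coding genes in 118 of 581 (20.3%) and those in pseudogenes in 9 of 37 (24.3%). A region that was not called in a list has no value there, which does not show that the RNA was absent or unbound.

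Known lncRNAs were looked up by lists of names. Of 20 host genes of small nucleolar RNAs (Snhg genes, Gas5, Zfas1 and others), 0 had a peak in a non-coding exon, although Snhg3 and Zfas1 had peaks under other annotations in all 4 lists and Gas5 in 1 list. Of 22 well known lncRNAs and small RNAs, 7 entries had such a peak, with 1 RNA, Norad, entered under both of its names. Malat1, a very abundant nuclear RNA, had no peak of any annotation, and neither had H19, an imprinted RNA of the embryo, or Kcnq1ot1. Of 10 imprinted RNAs, Peg13, Meg3 and Peg3os had a peak in a non-coding exon, while Airn had peaks under other annotations in 3 lists. Of 5 RNAs listed for X inactivation, Xist alone had a peak. Of 18 host genes of microRNAs Meg3 alone had one, with 11 IP and 0 input reads in normal replicate 2. Of 19 RNAs of HOX and other developmental loci, Hoxa11os alone had a peak in a non-coding exon, in starved replicate 1 with 115 IP reads, and Hotairm1 had 1 peak under another annotation. Antisense names were taken by their endings from the deposited gene names of the non-coding peaks, which gave 9 names. Such an ending does not show that a gene is non-coding. Regions in all 4 lists stood under 3 of them, Bach2os, Slc7a6os and Stk35os1. The region under Slc7a6os lay in an exon of Slc7a6, so by the gene of the exon only Bach2os and Stk35os1 remained. Likewise, the peak under Lrp8os2 lay in an exon of Lrp8. RNAs with an antisense name by the exon alone, such as Igf2os (Igf2) and Brip1os (Ints2), were not counted.

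Xist, the RNA that coats the inactive X chromosome, had 8 peaks in 8 separate regions, each called in 1 list. They held 29 to 72 IP reads against 2 to 29 input reads, with log2 folds of 1.24 to at least 2.96, and 5 of the 8 were in the normal lists. No Xist region was shared by a pair of lists. Neat1, the scaffold of nuclear paraspeckles, had 1 region in normal replicate 2 with 16 IP reads and 1 in starved replicate 2 with 36. Norad, a cytoplasmic RNA that binds PUMILIO proteins, was the opposite in depth. Its region at chr2:156391251-156393110 held 7886 IP reads in normal replicate 1 and 10240 in starved replicate 2, with log2 folds of 1.06 and 1.01 just inside the threshold, and it was not called in the other two lists. Near-identical copies (95% identity or more over at least 200 bases) cover 92.0% of that region, so its reads are uncertain.

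Peg13, an imprinted lncRNA transcribed from the paternal allele within Trappc9, had nearly the same fold in each list. Its region (chr15:72805551-72810410) held 4374 and 4737 normal and 5204 and 4549 starved IP reads, against 693, 820, 431 and 563 input reads. The log2 fold was 2.35 and 2.53 in normal against 2.37 and 2.43 in starved MEFs, so that the starved values lay inside the normal range. On the scale of normalised IP reads per kb of covered sequence, the level was 1191 and 1187 in normal against 932 and 839 in starved MEFs. Both starved values were below both normal values, but the log2 change of -0.43 ± 0.20 (SE, n = 2 per condition) did not pass edgeR's quasi-likelihood test (adjusted p = 0.512).

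In the other lncRNAs with high levels, the folds of the 2 conditions overlapped. Stk35os1, antisense to the kinase gene Stk35, had log2 folds of 1.95 and 2.00 in normal and 1.63 and 2.08 in starved MEFs, at 1024, 1013, 861 and 780 normalised IP reads per kb. Levels of D130020L05Rik (Ppp4r3a) were 918 to 1295 and those of Gm9767 916 to 1190 in the 4 lists, in ranges that overlapped those of Peg13 and Stk35os1, and 78% and 74% of these regions lay in exons of protein-coding transcripts. The log2 folds of D130020L05Rik were 1.86 and 1.18 in normal and 1.31 and 2.13 in starved MEFs, lower after starvation in replicate 1 and higher in replicate 2. Those of Gm9767 were 1.501 and 1.23 in normal and 1.40 and 1.70 in starved MEFs. Tug1 (chr11:3639741-3643270), a conserved lncRNA, had log2 folds of 1.51 and 1.22 in normal and 1.42 and 1.12 in starved MEFs. Its levels of 606, 629, 761 and 406 normalised IP reads per kb overlapped between the conditions, and a near-identical copy covers 19.3% of the region. Bach2os, antisense to the transcription factor gene Bach2, had log2 folds of 3.03, 1.82, 1.97 and 2.34, a wider spread within the normal condition than between the means of the conditions, with 88% of its bases in coding-transcript exons. Libraries were directional, but whether the counting used strand is not given in the sources used here, so reads of antisense RNAs and of the genes opposite may be mixed.

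As a group, the 29 lncRNA regions called in all 4 lists, from 28 genes, had a median log2 fold of 2.05 and 1.91 in normal and 1.65 and 1.98 in starved MEFs. The 118 regions in non-coding transcripts of protein-coding genes had 1.61, 1.54, 1.54 and 1.58, and all 6531 regions had 1.57, 1.57, 1.495 and 1.66. The 9 pseudogene regions, from 4 genes, had 1.91, 1.68, 2.08 and 1.84. The median level in normalised IP reads per kb was 277 to 306 for lncRNAs, 384 to 410 for non-coding transcripts of protein-coding genes and 467 to 473 over all regions. The medians are descriptions, since regions are not replicates.

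**Figure D2:**
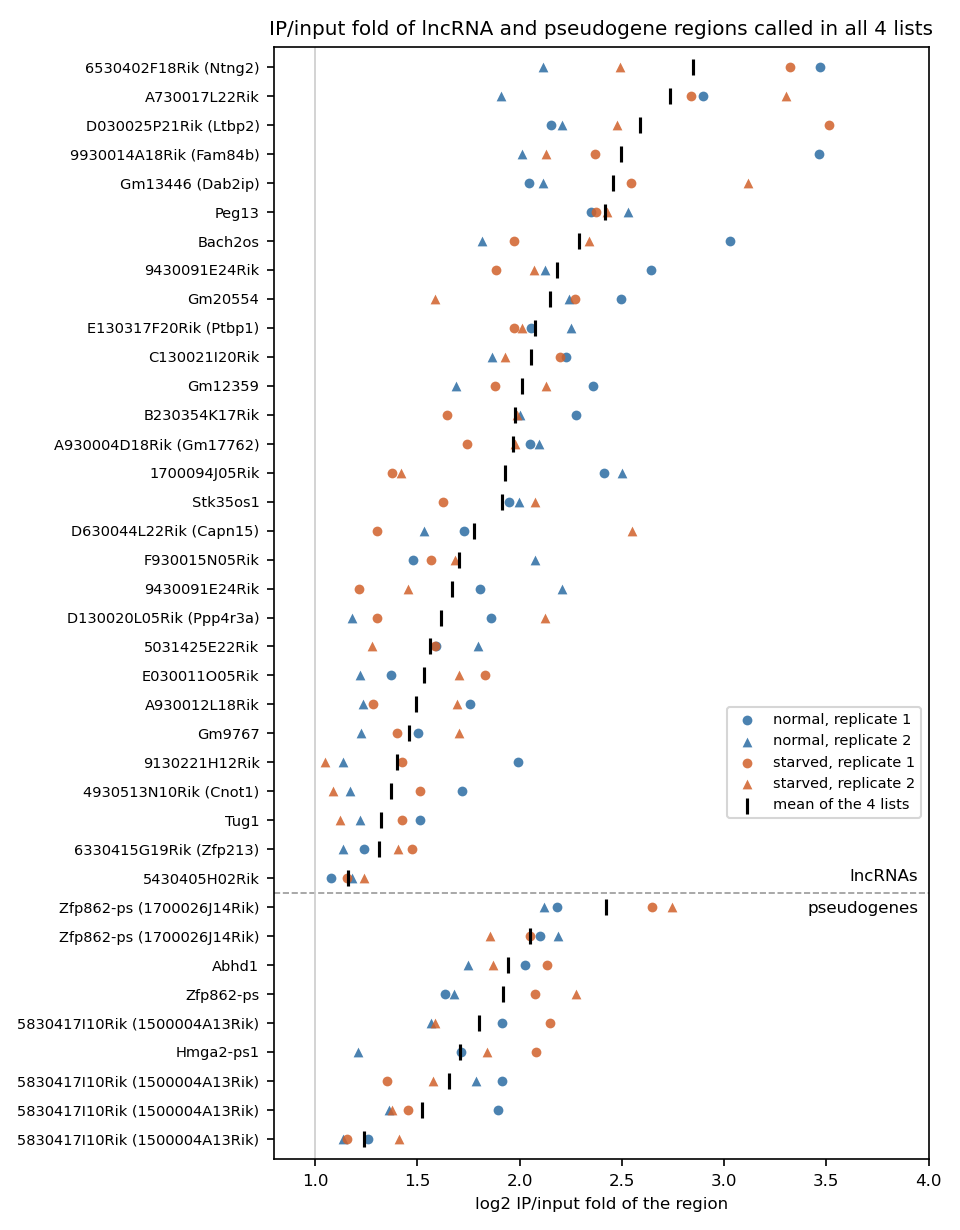
Points give the log2 IP/input fold (x axis) of each lncRNA and pseudogene region called in all 4 lists (y axis, with the deposited gene name in parentheses where it differs), by condition and replicate, and bars mark the mean of the 4 lists. Peg13 had nearly the same fold in each list (2.35 to 2.53), 1700094J05Rik lay lower in both starved lists and Gm13446 (Dab2ip) higher in both, and points that rest on 3 input reads or fewer are lower bounds.

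The 8 regions with the highest mean folds among those with at least 20 IP reads in each list had few input reads. Als2cl (Fam240a) had log2 folds of 4.17 and 2.61 in normal and 3.09 and 3.29 in starved MEFs, against 4, 29, 9 and 7 input reads. For Anks6 (Gabbr2), a gene of the primary cilium, the log2 folds were 3.01, 3.10, 2.30 and 2.78. A730017L22Rik, a lncRNA with no base in a coding-transcript exon, had 2.90 and 1.91 in normal and at least 2.84 and 3.30 in starved MEFs. For Hspa14, near-identical copies cover 64.0% of the region and its folds of 3.62, 2.04, at least 3.57 and 2.77 (log2) are uncertain. The others were a region of Kif21b, one of Mfsd4b4, one of Slc8a1 (Thumpd2) and D030025P21Rik (Ltbp2). In Als2cl and Hspa14 the 2 normal replicates lay farther apart than the means of the conditions.

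Among the non-coding regions called in all 4 lists, the highest mean of normalised IP reads per kb was in Slit2, a secreted axon guidance protein. At chr5:47983031-47985460 it held 3203 and 3182 normalised IP reads per kb in normal and 3193 and 3380 in starved MEFs, with no separation of the conditions. Icmt, the methyltransferase of prenylated proteins, had 5 regions called in all 4 lists. At chr4:152302781-152307140 its level was 3123 and 2547 in normal and 3080 and 2356 in starved MEFs. Atp11a (Gm15350) had 501 in normal replicate 1 and 2778, 2053 and 2412 in the other lists, and 1 list thus set it apart. Counted by the gene of the exon over all its deposited names, Kif21b, a kinesin motor, had 21 regions of which 3 were called in all 4 lists, Denn2b (Snora3 and St5) 18 of which 10 were, and Slit2 18 of which 4 were. The 10 regions of Denn2b had mean log2 folds of 1.20 to 1.70 and mean levels of 371 to 1574 normalised IP reads per kb. Adarb1 (mostly under Pofut2), an enzyme of A-to-I editing, had 14 regions and Selenoi 13, with 3 each in all 4 lists, and Itga8 had 13 with 0 in all 4.

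Pseudogene regions called in all 4 lists came from Zfp862-ps, 5830417I10Rik (1500004A13Rik), Abhd1 and Hmga2-ps1. Zfp862-ps had 3 such regions. In the region at chr6:48528141-48530660 the log2 fold was 2.18 and 2.12 in normal and 2.65 and 2.74 in starved MEFs, with no overlap of the conditions. The fitted change of the ratio was 0.51 ± 0.23 (SE, log2, n = 2 per condition), with an unadjusted p of 0.041 and an adjusted p of 0.9987 by edgeR. The log2 change of IP reads per base was -0.25 and that of input reads per base -0.78 (edgeR adjusted p = 0.781 and 0.492). In the region at its 5′ side (chr6:48511621-48512650) the log2 folds of 1.64, 1.68, 2.08 and 2.27 separated the same way, whereas at chr6:48531841-48534720 they were 2.10 and 2.19 in normal and 2.05 and 1.86 in starved MEFs. The 4 regions of 5830417I10Rik had mean log2 folds of 1.24 to 1.804, and near-identical copies cover 60.8% to 100.0% of them, so that reads of the copies may be counted there.

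To ask whether starvation changed the IP relative to the input, the IP and input reads of all 6531 regions called in all 4 lists were fitted together. Of the 162 non-coding regions, 0 were higher and 0 lower at an adjusted p under 0.05 (edgeR's quasi-likelihood test with Benjamini-Hochberg adjustment), where 0.0153% and 0.0% of all regions were. DESeq2 also called 0. At an unadjusted p under 0.05, 2 were higher and 2 lower, with 1.26% and 1.55% of all regions. Leaving out starved replicate 2 gave 1 lower call, Bmf. When both replicates had to move the same way by 1.8-fold or more, 0 regions were higher and 2 lower, Bmf and 1700094J05Rik, against 0.23% and 0.322% of all regions. With no minimum size, 37 were higher and 49 lower in both replicates (22.8% and 30.2%), where 28.0% and 25.4% of all regions were. The folds of the conditions did not overlap in 25 higher and 30 lower non-coding regions (15.4% and 18.5%), beside 15.2% and 13.3% of all regions. The higher share was near that of all regions and the lower share was above it, which was not tested. The median log2 change of the ratio was -0.04 over the non-coding regions and -0.02 over all.

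The lncRNA 1700094J05Rik held 33 and 17 IP reads over 5 and 1 input reads in normal and 103 and 221 over 17 and 55 in starved MEFs. Its log2 folds were 2.41 and at least 2.503 in normal and 1.38 and 1.42 in starved MEFs, with no overlap of the conditions. The fitted change of -1.51 did not pass the test (adjusted p = 0.9987), and 83% of its region lies in exons of protein-coding transcripts. Both regions of 9430091E24Rik had lower folds in both starved lists, with log2 folds of at least 1.81 (over 0 input reads) and 2.21 in normal and 1.22 and 1.45 in starved MEFs at chr8:111129391-111129900, and of 2.64 and 2.13 in normal and 1.89 and 2.07 in starved MEFs at chr8:111128051-111128510. Gm13446 (Dab2ip) had 2.05 and 2.12 in normal and 2.55 and at least 3.12 in starved MEFs, where the last value rests on 3 input reads. Khnyn, a partner of the antiviral protein ZAP, had 1.48 and 1.36 in normal and 2.22 and 2.08 in starved MEFs in 1 of its 3 regions (chr14:55885431-55886220). Its other regions did not follow, with 1.96, 1.47, 1.798 and 1.87 at chr14:55886341-55888160, and with lower folds in both starved lists (1.81 and 1.85 against 1.495 and 1.43) at chr14:55894641-55897400 (Sdr39u1). Each of these changes had an adjusted p of 0.9987. For D030025P21Rik (Ltbp2) the log2 folds were 2.16 and 2.21 in normal and at least 3.51 and 2.47 in starved MEFs, where the input held 1 and 2 reads. In Gm13446, Khnyn (chr14:55885431-55886220) and D030025P21Rik, IP reads per base changed by -0.31, -0.35 and -1.10 (log2) and input reads by -0.94, -1.07 and -2.83. In 1700094J05Rik and 9430091E24Rik (chr8:111129391-111129900) the IP changed by 1.14 and 0.84 and the input by 2.60 and 2.015. None of these passed the edgeR test.

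The reads per base were then tested in the IP libraries and in the input libraries, each alone. Among the 162 non-coding regions, IP reads per base were higher in 2 and lower in 1 after starvation (edgeR, adjusted p under 0.05), with 0.184% and 0.934% of all regions. At an unadjusted p under 0.05, 10 were higher and 4 lower, against 5.01% and 5.37%. Input reads per base passed in the same 3 regions, 2 higher and 1 lower, with 0.214% and 0.766% of all regions, and at an unadjusted p under 0.05 in 7 higher and 4 lower, against 4.01% and 4.23%. The 3 regions were those of Bmf, Vash2 (Angel2) and Hmga2-ps1. Without starved replicate 1 fewer non-coding regions passed in the IP, and without any other sample more did. In the input more passed whichever sample was left out. Over all regions the calls moved the same way, and such fits leave 1 sample in a condition. In bulk samples, fewer cells of a type and less RNA per cell cannot be told apart. The levels of the conditions did not overlap in 37 higher and 32 lower regions in the IP (22.8% and 19.8%), near the 20.1% and 19.7% of all regions.

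Hmga2-ps1, a pseudogene of the chromatin gene Hmga2, fell in IP and input. Its region (chr1:176834701-176836240) held 662 and 488 IP reads in normal and 266 and 360 in starved MEFs, against 163, 211, 27 and 67 input reads. As normalised reads per kb, the IP level was 643 and 525 in normal and 219 and 214 in starved MEFs, and the input level was 134 and 158 against 34.3 and 44.0. The log2 change was -1.43 ± 0.22 in the IP (SE, adjusted p = 0.0282) and -1.88 ± 0.34 in the input (adjusted p = 0.0374), by edgeR with n = 2 per condition. The IP/input ratio changed by 0.43 on the log2 scale (adjusted p = 0.9987), with folds of 1.71, 1.21, 2.08 and 1.84. The region has no base in an exon of a coding transcript, while a near-identical copy covers 14.7% of it. Without starved replicate 1, the adjusted p of the IP change was 0.0842.

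Vash2 (Angel2), a tubulin carboxypeptidase, rose in IP and input. Its region at chr1:190947981-190950470 had 472 and 563 normalised IP reads per kb in normal and 1333 and 1183 in starved MEFs, and input levels of 103, 136, 336 and 296. All starved values were above all normal values. The log2 change was 1.28 ± 0.21 in the IP (SE, adjusted p = 0.0379) and 1.40 ± 0.26 in the input (adjusted p = 0.0433), by edgeR with n = 2 per condition. The log2 folds of 1.64, 1.53, 1.39 and 1.56 stayed near each other. Of its bases 91% lie in exons of the coding transcripts. The IP change had an adjusted p of 0.176 without starved replicate 1, and the input change one of 0.128 without normal replicate 1.

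Bmf, a BH3-only protein that promotes apoptosis, had the largest rise. At chr2:118528881-118532850 the IP held 28 and 37 reads over 440 and 560 bp in normal MEFs and 2743 and 1751 reads over 3900 and 3620 bp in starved MEFs. Levels were 84.0 and 75.4 normalised IP reads per kb in normal and 557 and 406 in starved MEFs, a log2 change of 2.60 ± 0.27 (SE, n = 2 per condition, edgeR adjusted p = 0.00761). The input held 0 and 1 reads in normal and 448 and 356 in starved MEFs, and with 1 against 804 reads the ratio per base was 124 (95% counting interval, 22.2 to 4910). The log2 folds were at least 2.91 and 3.62 in normal and 1.39 and 1.71 in starved MEFs. Of the region, 95% lies in exons of the coding transcript, and reads of the mRNA and of the non-coding transcript cannot be told apart there. Flcn, a regulator of nutrient signalling at the lysosome, had 2 regions with higher IP and input values in both starved lists. The log2 change of the input was 1.24 in the region under Pld6 (edgeR adjusted p = 0.107) and 1.15 in the other (edgeR adjusted p = 0.477). The IP/input ratio changed by 0.02 and 0.05 (log2, edgeR adjusted p = 0.9987 for each). At chr11:59807581-59808120 the log2 change of the IP was 1.23 without passing the test (edgeR adjusted p = 0.155). At chr11:59791641-59793040 (Pld6) the level was 909 and 703 normalised IP reads per kb in normal and 2436 and 1586 in starved MEFs, without passing the test (edgeR adjusted p = 0.0813). The adjusted p by edgeR was 0.00299 without normal replicate 1, 0.0289 without normal replicate 2, 0.0192 without starved replicate 2 and 0.4035 without starved replicate 1, where the log2 change fell from 1.32 to 0.98, and it was 0.000307 by DESeq2.

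**Figure D3:**
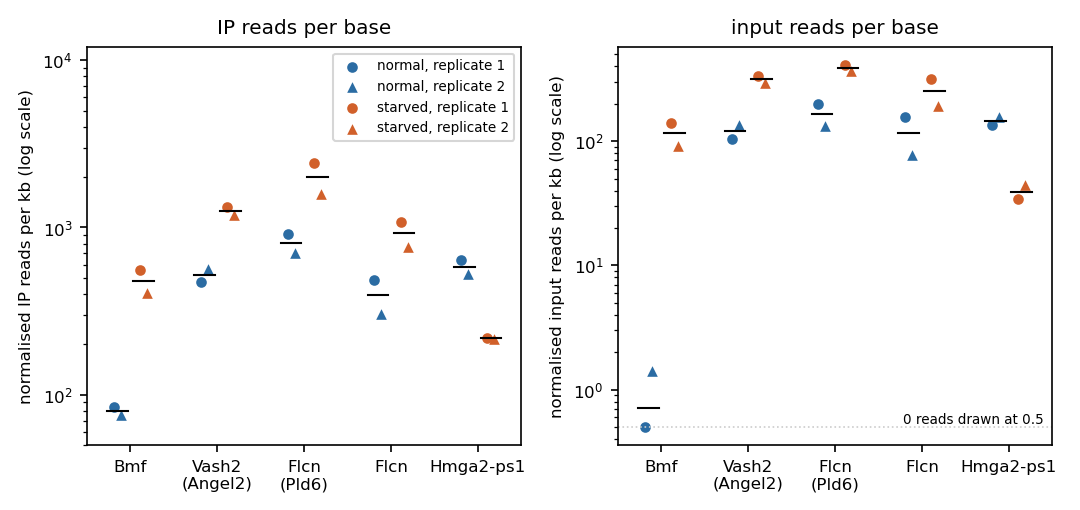
Points give normalised IP reads per kb (left) and input reads per kb (right), on log axes, for 5 regions in each list, and bars mark the mean of the 2 replicates of a condition. In Bmf, Vash2 and both regions of Flcn all starved values were above all normal values, in Hmga2-ps1 below, and the 0 input reads of Bmf in normal replicate 1 are drawn at 0.5.

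**Figure D4:**
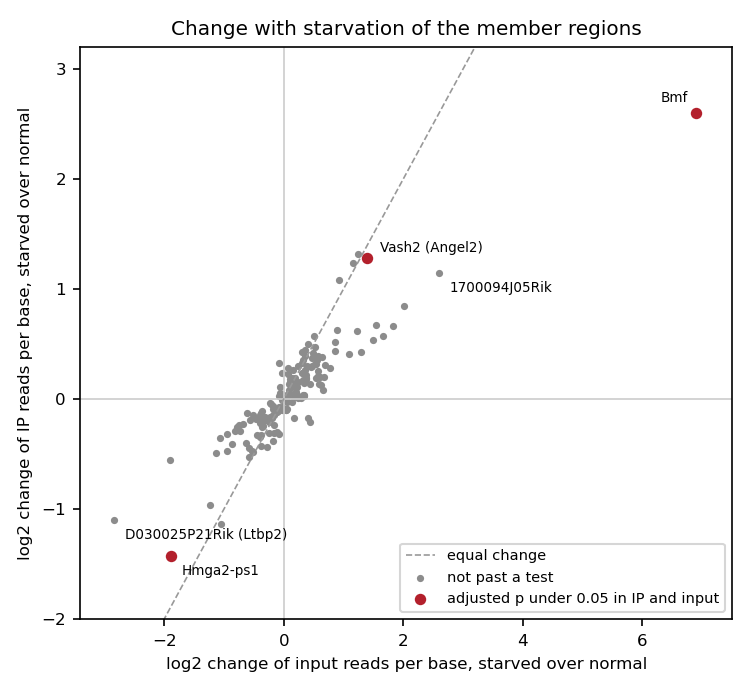
Each point is 1 of the 162 non-coding regions called in all 4 lists, with the fitted log2 change of input reads per base after starvation on the x axis and that of IP reads per base on the y axis. The 3 regions past both tests are red, and the fitted input change of Bmf rests on 1 read in normal MEFs and depends on the fit.

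Regions called in both lists of 1 condition and in none of the other numbered 40 for starved MEFs and 7 for normal MEFs. They were 4.82% and 0.843% of the non-coding regions, beside 4.7% and 1.3% of all regions. By class, 8 of the 40 were in lncRNAs, 30 in non-coding transcripts of protein-coding genes, 1 in a pseudogene and 1 in a transcript not in the annotation. Among the lncRNAs was Trp53cor1 (lincRNA-p21), a target of p53, with 39 and 22 IP reads in the starved lists and 0 input reads in both. Rptoros, antisense to the mTORC1 subunit gene Rptor, had 116 and 89 IP reads against 21 and 13 input reads, and 2610035D17Rik had 34 and 31 against 1 and 1. The deepest such regions were in protein-coding genes. Brd2, a chromatin reader, had 6097 and 5930 IP reads with log2 folds of 1.08 and 1.20, and Bcl2l1 (Cox4i2), an inhibitor of apoptosis, had 3611 and 3206 with 1.14 and 1.03. These folds lay just above the threshold of 1 on the log2 scale. The regions seen in both normal lists alone were in Atg9a (Abcb6), Kantr, Ankrd11 (Cdh15), Selenoi, Pif1, Ppp4r1 and Fut8, with 27 to 480 IP reads, and Kantr was the lncRNA among them.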

How the data were processed

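YTHDF3 RIP-seq of 2 normal and 2 starved MEF samples gave 4 lists of peaks. The authors aligned reads to mm10 with TopHat2 2.0.13, called peaks per IP and input with diffReps, with HOMER for the annotation. For normal replicate 2 the deposited values are counts of reads in each peak, and for the other lists a signal, which is reads multiplied by 1 factor per library. The deposited p-values of diffReps were used for the threshold of 0.0001 alone. The other deposited columns of the authors' comparison of IP and input, among them log2 values and window statistics, were not used. Reads were recovered by division by the factor (100% of values were whole), and each fold is the ratio of the deposited IP and input values. The lists do not name the inputs, and an input of the same condition and replicate number was assumed. Library totals were not given.

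Peaks were merged at 1 bp of overlap, and reads were summed within a region. Reads per kb were normalised by TMM library size and covered length. The tests, on regions with a peak in every list, were made in R 4.3.3 with edgeR 4.0.16 and, as an alternative, with DESeq2 1.42.0. Both were run over all 6531 regions with Benjamini-Hochberg adjustment. Transcripts, exons and biotypes came from RefSeq for GRCm38, and printed sequences are from the same assembly. The search for near-identical copies used blastn 2.17.0. Other steps used Python 3.11.15 with pysam 0.24.0, scipy 1.17.1, numpy 2.4.6 and pandas 2.3.3.

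The non-coding regions and the gene lists were chosen with earlier results of these data known. Named were list genes with a region in all 4 lists, the 8 highest folds, regions past a test or with the 3 largest changes in each direction, the 5 highest levels and the 4 genes with the most regions. Others were named after their values were seen, among them Xist, Neat1, Norad, Trp53cor1, Brd2 and the lncRNAs with the highest levels. Alternatives covered thresholds, overlap, normalization, read filters, a replicate block, motif windows and leaving out each replicate.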

Additional observations from a re-analysis of the deposited data

How the results depend on the processing

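With 4-fold in place of 2-fold as the minimum of IP over input, the share of peaks in non-coding exons moved from 1.974% to 2.281% (mean of the 4 lists), regions called in all 4 lists fell from 162 to 16, and none of those passed for IP reads per base (0, from 3), input reads per base (0, from 3) or the 1.8-fold count (0, from 2). A 50% reciprocal overlap gave 68 regions and a 1.8-fold count of 0, and asking that every peak of a region be so annotated gave 84. Bmf and Hmga2-ps1 were not among the 68. For IP reads per base, 2 of the 68 were higher, Vash2 (Angel2, adjusted p = 0.0194) and Flcn (Pld6, adjusted p = 0.0229) by edgeR, and 0 lower. Of all 3989 regions under this overlap, 24 were higher and 62 lower. Taking peaks whose gene type was not protein-coding gave a share of 0.5499%, and peaks with more than 3 input reads had a median log2 fold of 1.572 in place of 1.703. A cutoff of 1.5-fold gave 4 regions, and 1 replicate alone gave 13 and 14. DESeq2 called 5 regions for IP reads per base (4 higher, 1 lower), beside 67 higher and 113 lower of all 6531 regions. Leaving out each sample gave 1 to 7 calls for IP reads per base (1 without starved replicate 1, 7 without normal replicate 1 or starved replicate 2), 4 to 9 for input reads per base (9 without normal replicate 2, 8 without starved replicate 2) and 0 to 1 for the ratio. The 23 regions with no base in a coding-transcript exon, an alternative chosen after seeing the data, held 1 call for IP and 1 for input reads per base, both Hmga2-ps1, and 0 changes of 1.8-fold. GGAC stood in 40.4% of 100-base windows and 94.9% of whole regions, beside 39.8% and 93.7% over all regions called in all 4 lists. The m6A consensus (A, G or T, then A or G, then AC, then A, C or T) stood in 96.8% of the 200-base windows, beside 96.3%. The cause of these differences was not tested; fewer regions entered under the stricter fold, overlap and annotation settings. With the replicate block, 12 of 162 regions passed for IP reads per base (10 higher, 2 lower), beside 321 higher and 329 lower of all 6531 regions. Among the 12 were Peg13 (adjusted p = 0.0344 by edgeR) and the region of Flcn under Pld6 (adjusted p = 0.000247 by edgeR). For input reads per base 4 passed (3 higher, 1 lower), beside 108 higher and 150 lower of all regions. For the ratio 0 passed, beside 1 higher and 0 lower of all regions. Same-numbered samples deviated together with r = 0.275 for the ratio, 0.4523 for IP and 0.2815 for input across regions, but there are only 2 pairs and the labels give the number no meaning, so it is not taken as a pairing. Of the values of single regions under the alternatives, 161 kept their direction and side of the threshold, 12 passed it in addition and 3 no longer passed, and none was reversed. Regions without a value under a setting, such as Bmf and Hmga2-ps1 under the 50% overlap, did not enter these counts. Reads inside peaks are the only depth given, and 2 samples per condition limit what could be called.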
